A study of Homo sapiens with 96 samples.

Results

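The mRNAs of 10 genes grouped as ERK feedback genes were followed over 96 libraries of cytoplasmic RNA. The cells were A375, a human melanoma cell line with an activating BRAF mutation. The genes were taken by symbol from the raw count table: the phosphatases DUSP1, DUSP4, DUSP5 and DUSP6, the Sprouty genes SPRY1, SPRY2 and SPRY4, the Spred genes SPRED1 and SPRED2, and PHLDA1. They are 10 of the 44659 entries in the table, and 10 of 10 were among the 14948 entries that passed the filter on low counts. Cells were kept for 18 h in DMSO or in MAPKi, which is 500 nM vemurafenib (a BRAF inhibitor) with 500 nM cobimetinib (a MEK inhibitor). The next step added vehicle, cycloheximide (CHX) at 100 µg/ml to stop translation, triptolide (T) at 25 µM to stop transcription, or cycloheximide followed by triptolide after 5 min (TCHX), and cells were harvested at 0, 1, 3 or 5 h. This gives 32 groups of 3 libraries. The groups share the cell line, and whether libraries of a group came from separate cultures is not given in the labels, so p-values measure the spread between these libraries, which may be technical.

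ERK is the last kinase of the RAS, RAF and MEK cascade, and its activity switches on genes whose products act back on the cascade. DUSP phosphatases remove the activating phosphates from ERK and related kinases, and Sprouty and Spred proteins act further up, between receptors and RAF. In melanoma cells with mutated BRAF this feedback is strongly engaged, and these transcripts are widely used as a readout of ERK output.

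The libraries held 2381351 to 12520154 counts, with a median of 7143396. Levels are given as CPM, the counts of a gene relative to the scaled total of its library. QuantSeq gives 1 read position per transcript, at its 3′ end, and CPM values of different genes can be compared without a correction for length. Of 11 lineage markers, SOX10, MITF, S100B, VIM and NES were present in all libraries, whereas the pigment genes MLANA and TYR reached at most 3.05 and 1.18 CPM. Of 10 markers of other cell types, KRT5, KRT1 and CDH5 had 0 counts in all libraries and the highest value of any was 4.91 CPM (PDGFRA). Some lineage markers moved with the pretreatment: DCT had a median of 47.2 CPM in DMSO and 1970 in MAPKi, and CSPG4 one of 271 and 52.1. Their part in the results was not tested.

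The promoters of 8 of the 10 genes had entries in the RefSeq table used (GRCh38.p14). The 250 bases before the start of each entry were searched on both strands for 7 motifs. The 3 windows given here belong to DUSP1, whose mRNA moved apart from the others in several comparisons, and to DUSP6 and SPRY4, which had the largest differences between pretreatments. The windows of DUSP1 and DUSP6 lie directly before the gene positions given further below. That of SPRY4 lies inside its gene, before an internal start, as do some windows of SPRY1, SPRY2 and SPRED2. Capitals mark matches to the CRE (TGACGTCA) and to the core of the TATA box (spelled TATAAA); no other full motif was found in these windows.
DUSP1 (GRCh38.p14 chr5:172771196-172771445, minus strand): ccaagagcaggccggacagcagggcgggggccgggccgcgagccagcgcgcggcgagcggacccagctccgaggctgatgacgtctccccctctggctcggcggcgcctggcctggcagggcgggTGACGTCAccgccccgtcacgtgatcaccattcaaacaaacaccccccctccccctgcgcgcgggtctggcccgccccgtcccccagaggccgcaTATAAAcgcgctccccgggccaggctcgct
DUSP6 (GRCh38.p14 chr12:89352502-89352751, minus strand): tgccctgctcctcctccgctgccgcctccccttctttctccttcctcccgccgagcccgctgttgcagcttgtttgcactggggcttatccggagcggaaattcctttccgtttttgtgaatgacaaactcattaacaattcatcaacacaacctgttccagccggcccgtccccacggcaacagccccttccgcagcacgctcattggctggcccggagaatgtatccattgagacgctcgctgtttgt
SPRY4 (GRCh38.p14 chr5:142324248-142324497, minus strand): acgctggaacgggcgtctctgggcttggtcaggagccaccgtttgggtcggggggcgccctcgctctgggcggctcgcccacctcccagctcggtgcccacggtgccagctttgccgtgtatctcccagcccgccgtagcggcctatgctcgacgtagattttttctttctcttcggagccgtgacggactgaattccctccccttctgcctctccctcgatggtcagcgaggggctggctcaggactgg
In DUSP1 the CRE lay at -125 to -118 and the TATA match at -30 to -25, counted from the start. Over the 12 windows of these genes, the CRE occurred in 1, against 1.65% of all 35116 promoters. The TATA match occurred in 2, DUSP1 and 1 of the SPRED2 windows, against 10.7%. AP-1 (TGANTCA), ETS (CCGGAAGT) and the CArG box were in 0 of the 12, against 6.57%, 3.42% and 1.16%. A shorter core of the CRE (TGACG) was in 3 of the 12, those of DUSP1, SPRY4 and SPRY2, against 21.2%. A shorter core of the ETS motif (GGAAG) was in 9 of the 12, DUSP6 included, against 65.1%. Matches to the shorter cores outside the CRE were left in lower case. A match describes the letters of a window and not a bound site.

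In DMSO vehicle at 0 h, PHLDA1, a pleckstrin-homology protein, was highest at 509 ± 48.6 CPM (SD, n = 3), followed by DUSP6, the cytoplasmic ERK phosphatase, at 357 ± 52.9. DUSP4, a nuclear phosphatase, stood at 236 ± 7.33 CPM, SPRY4 at 133 ± 15.9, SPRED1 at 104 ± 0.505 and SPRY2 at 66.0 ± 3.20. DUSP5, a nuclear ERK phosphatase, SPRED2 and SPRY1 followed at 15.7 ± 2.53, 14.8 ± 4.44 and 14.5 ± 2.2 CPM, and their ranges overlapped. DUSP1, a nuclear phosphatase of ERK, p38 and JNK and an immediate early gene, was lowest at 2.89 ± 1.44 CPM. The ranges of the other neighbours in this order did not overlap.

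The first question was how MAPKi changed these levels before any other drug. Each of the 10 mRNAs was lower in MAPKi at 0 h (edgeR quasi-likelihood test with Benjamini-Hochberg adjustment), where 23.6% of all genes tested were called lower. Their median log2 difference was -2.86, against 0.04 over all genes. The MAPKi libraries lay below the DMSO libraries without overlap for 9 of the 10, the exception being DUSP1, and for 26.4% of all genes.

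DUSP6 had 296, 382 and 393 CPM in the 3 DMSO libraries and 1.65, 0.358 and 1.22 CPM in the 3 MAPKi libraries. The groups were far apart, with a log2 difference of -8.28 (SE 0.378, adjusted p = 5.409e-32). Pooled counts were 7617 and 23, and the scaled ratio was 323 (95% interval 215 to 510, counting error only). DUSP4 fell from 239, 242 and 228 CPM to 23.8, 20.6 and 24.8 CPM, a log2 difference of -3.35 (SE 0.121, adjusted p = 2.922e-38). DUSP5 had 17.9, 12.9 and 16.2 CPM in DMSO and 3.44, 3.05 and 2.57 CPM in MAPKi, again without overlap (log2 difference -2.37, SE 0.378, adjusted p = 2e-07).

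DUSP1 differed from its relatives. It had 3.95, 1.24 and 3.47 CPM in DMSO and 1.65, 0.717 and 1.22 CPM in MAPKi, so that the lowest DMSO library lay inside the MAPKi range. Its log2 difference of -1.22 (SE 0.52) passed with an adjusted p = 0.04918, and 7 of 11 alternative analyses lost the call, with adjusted p from 0.02796 to 0.2175. Leaving out replicate 1, 2 or 3 gave 0.1104, 0.08758 and 0.2175.

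The Sprouty genes, whose proteins act on signalling from receptor tyrosine kinases, were close to the detection limit in MAPKi. SPRY4 went from 145, 139 and 115 CPM to 0.412, 0.537 and 0 CPM (log2 difference -8.72, SE 0.348, adjusted p = 4.365e-35), with 6 counts in all in MAPKi and a ratio of 436 (200 to 1190). SPRY2 went from 68.6, 67.0 and 62.4 CPM to 1.1, 0.896 and 0.542 CPM (log2 difference -6.26, SE 0.337, adjusted p = 5.244e-27). SPRY1 went from 17.0, 12.9 and 13.7 CPM to 0, 0 and 0.542 CPM, that is 4 counts in 1 library. Its ratio was 71.9 with a wide interval of 27.8 to 266.

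The Spred genes, whose proteins bring the RAS inhibitor neurofibromin to the membrane, had smaller differences. SPRED1 had 104, 103 and 104 CPM in DMSO and 30.6, 27.4 and 32 CPM in MAPKi (log2 difference -1.79, SE 0.11, adjusted p = 1.761e-24). SPRED2 had 10.8, 14 and 19.6 CPM against 6.46, 3.58 and 3.39 CPM (-1.73, SE 0.314, adjusted p = 3.135e-06). PHLDA1 had 465, 502 and 561 CPM against 149, 112 and 157 CPM (-1.87, SE 0.177, adjusted p = 4.863e-15). These 3 genes had ratios of 3.44 (SPRED1), 3.48 (SPRED2) and 3.67 (PHLDA1). In MAPKi the order of levels was therefore PHLDA1, SPRED1, DUSP4, SPRED2, DUSP5, DUSP1, DUSP6, SPRY2, SPRY4 and SPRY1. Ranges of neighbours overlapped between SPRED2 and DUSP5, between DUSP1 and DUSP6, between DUSP6 and SPRY2, and between SPRY4 and SPRY1. The range of DUSP6, which was second in DMSO, also overlapped those of SPRY4 and SPRY1. DUSP6 therefore had no resolved place among ranks 6 to 10.

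In the vehicle arm at 1 to 5 h, libraries that the 0 h comparison did not use, 9 of the 10 were lower in MAPKi, where 31.1% of all genes were. The log2 differences were -7.51 for SPRY4, -7.13 for DUSP6, -5.82 for SPRY2, -5.19 for SPRY1 and -3.18 for DUSP4. They were -2.16 for PHLDA1, -1.93 for SPRED2, -1.75 for SPRED1 and -0.98 for DUSP5. DUSP1 was not called, at 0.19 (SE 0.257, adjusted p = 0.5313). The ratio of DMSO to MAPKi for DUSP5 went from 5.16 (3.92 to 6.91) at 0 h to between 1.75 and 2.24 later, and that of SPRED1 stayed between 3.33 and 3.44.

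Genes of the same pathway were read from lists that were chosen with earlier results of these data known. Of 25 tested genes listed for the cascade, 11 were higher and 5 lower in MAPKi at 0 h, with a median log2 difference of 0.30. The list runs from receptors to ERK and also holds genes that act after ERK, such as CIC and RPS6KA2. Over all genes 22.3% were higher, beside the 23.6% that were lower, so the cascade's lower count was near the background, as was the higher count of the relatives below. The largest changes were in the receptor EGFR (-2.21), the RAS exchange factor SOS2 (1.5), the repressor CIC (1.22) and the receptor ERBB3 (1.2). Of 17 other transcripts known as ERK output, 15 were lower and 1 higher, with a median of -3.05. ETV5 (-6.21), EGR3 (-5.80) and EGR1 (-5.68), all transcription factors, had large decreases, and LIF had 0 counts in MAPKi. The 1 that was higher was FOS (3.01), named after its value was seen. Of 8 tested relatives of the 10 genes, 3 were lower and 2 higher (median -0.09), among them DUSP2 (-3.55), DUSP9 (-0.84), DUSP22 (1.34) and DUSP3 (0.88).

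The vehicle arm was then compared with its own 0 h libraries. In DMSO at 1 h, 0 of the 10 were called by edgeR, where 0.087% of all genes were. At an unadjusted p under 0.05 there was 1 (4.85% of all genes), and DESeq2 called 0 (0.161%). In MAPKi at 1 h, 1 was called, DUSP1, where 0.12% of all genes were. DUSP1 had 5.76, 6.14 and 4.68 CPM at 1 h, all above the 1.65, 0.717 and 1.22 CPM at 0 h (log2 difference 2.14, SE 0.494, adjusted p = 0.04305). The call was lost in 7 of 11 alternatives, with adjusted p from 0.0003993 to 0.8698, and leaving out any 1 replicate was enough (0.2775, 0.8698 and 0.1566). DUSP6 had 5.92, 3.95 and 6.24 CPM at 1 h, also above its 3 values at 0 h, with an adjusted p = 0.05398 and a ratio of 4.95 (3.14 to 8.12). It was back at 1.72, 1.34 and 1.41 CPM at 3 h.

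Over 3 and 5 h in DMSO, 3 genes changed in vehicle, where 1.42% of all genes did. DUSP4 (-0.39, adjusted p = 0.006196), SPRY4 (-0.74, adjusted p = 0.001358) and PHLDA1 (-0.55, adjusted p = 0.02753) were lower. In MAPKi 3 changed, where 2.67% of all genes did. DUSP4 (-0.39, adjusted p = 0.03366) and PHLDA1 (-0.86, adjusted p = 4.958e-05) were lower, and DUSP5 was higher (1.19, adjusted p = 0.04354). The DMSO calls were lost without replicate 1 (adjusted p from 0.1599 to 0.2927) and without replicate 2 (from 0.08799 to 0.2779). In MAPKi the DUSP4 call was lost without replicate 1 or 2 (0.4499 and 0.2012) and the DUSP5 call without replicate 1 or 3 (0.2042 and 0.5156). SPRY4 in DMSO dipped to 61.0, 60.4 and 63.6 CPM at 3 h, below each library at 0 h and at 5 h (104, 112 and 90.7 CPM). At 0 h the CHX, T and TCHX arms were compared with vehicle as averages over both pretreatments, and neither pretreatment was tested alone. Each arm had 0 called genes (0% of all genes in each), and 0 of the 10. At an unadjusted p under 0.05 the number of the 10 was 1, 2 and 0, where 2.94%, 5.76% and 4.48% of all genes passed. DESeq2 called 0 of the 10 in each arm, and 0.00669%, 0.00669% and 0% of all genes. In the MAPKi triptolide arm at 0 h, replicate 3 had 33 counts of DUSP1 and 32 of SPRY2, against 1 and 4, and 6 and 0, in the other libraries. In MAPKi at 0 h, the cycloheximide libraries of DUSP4 (1.34 times vehicle) and DUSP6 (1.95 times) lay above vehicle without overlap. Ranges of the other genes overlapped there. In DMSO at 0 h only SPRED1 was apart, lower with cycloheximide at 0.976 times vehicle. The share of all genes apart in this way at 0 h was not counted, so these separations are given as description only.

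Most of these mRNAs were higher with cycloheximide at 3 and 5 h. At 1 h, 0 of the 10 were called higher in DMSO, where 0.0803% of all genes were, and 0 in MAPKi, where 0.0669% were. At an unadjusted p under 0.05, 2 were higher in each pretreatment, where 2.7% (DMSO) and 4.4% (MAPKi) of all genes were. DESeq2 called 0 in each, and 0.1% and 0.262% of all genes. Over 3 and 5 h in DMSO, 8 of the 10 were higher, where 17.3% of all genes were, with a median log2 difference of 1.19 against 0.00 over all genes. In MAPKi 7 were higher, where 15.9% were, with a median of 1.09.

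**Figure D1:**
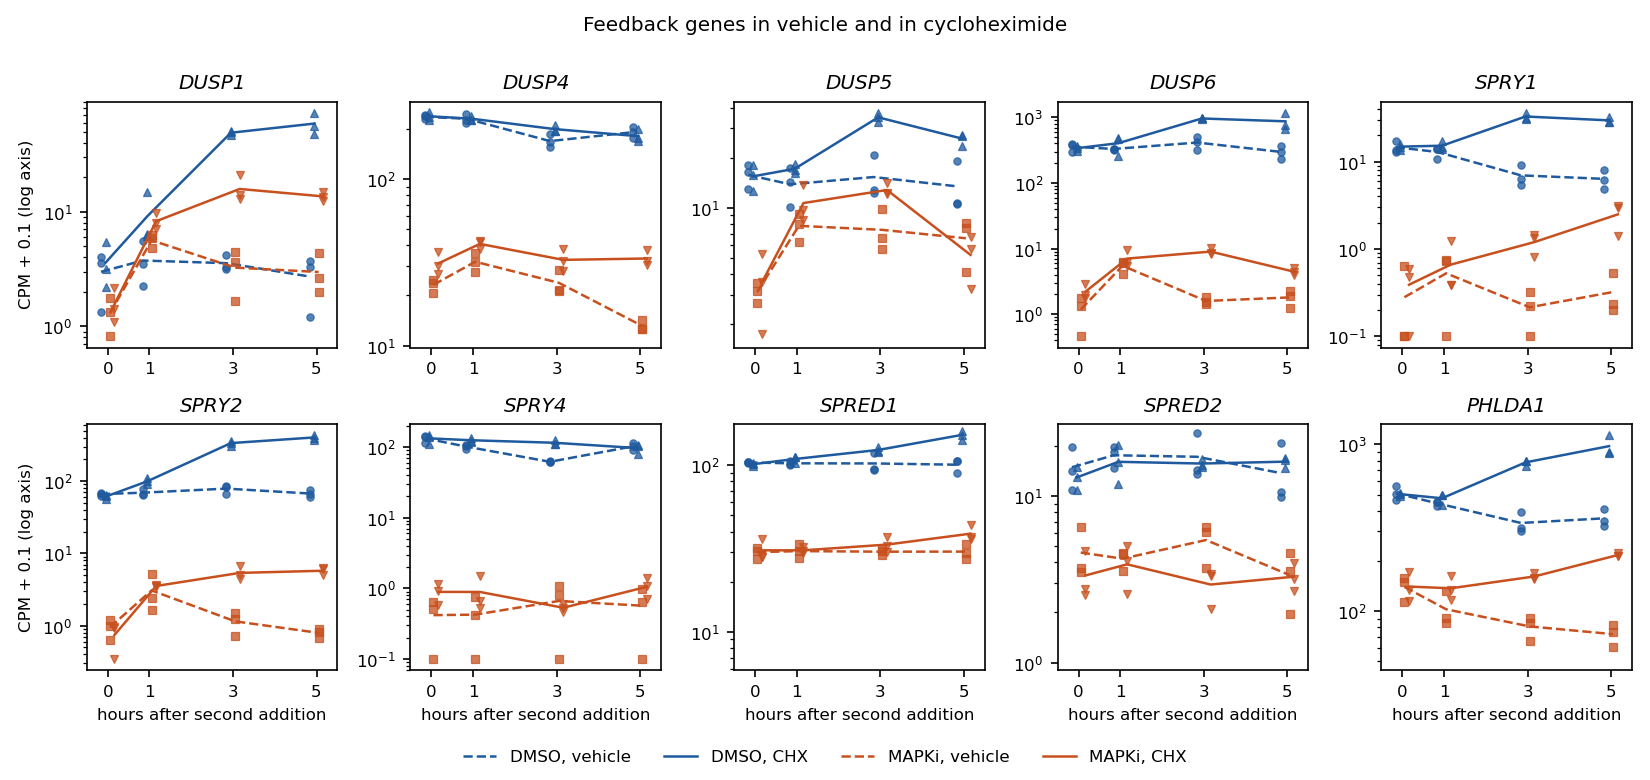
Levels of the 10 mRNAs in CPM (log axis, 0.1 added) against hours, for DMSO and MAPKi with vehicle or cycloheximide. Points are libraries and lines join group means of 3. DUSP1 in DMSO with cycloheximide reached 58.7 CPM at 5 h against 2.62 CPM in vehicle, and DUSP6 and the Sprouty genes were near the bottom of the axis in MAPKi.

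DUSP1 rose most in DMSO. It had 46.9, 49.2 and 50.2 CPM with cycloheximide at 3 h against 3.07, 3.22 and 4.09 CPM in vehicle, and 55.4, 47.8 and 72.9 against 3.16, 1.1 and 3.6 CPM at 5 h. Its means were 14.1 and 22.4 times those of vehicle, and the log2 difference was 4.10 (SE 0.3, adjusted p = 1.203e-19). In MAPKi it had 12.7, 20.6 and 13.8 CPM at 3 h and 12.4, 14.7 and 13.4 CPM at 5 h with cycloheximide, 4.98 and 4.69 times the vehicle means (log2 difference 2.22, SE 0.287, adjusted p = 2.038e-09). Groups with and without cycloheximide did not overlap at 3 or 5 h in either pretreatment.

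SPRY2 had 362, 303 and 342 CPM at 3 h and 431, 401 and 376 CPM at 5 h with cycloheximide in DMSO, against 59.8 to 86.8 CPM in vehicle (log2 difference 2.34, SE 0.145, adjusted p = 2.709e-23). SPRY1 had between 28.1 and 36.2 CPM with cycloheximide, against between 4.74 and 9.06 CPM in vehicle (2.24, SE 0.289, adjusted p = 1.092e-09). Its vehicle mean was 14.5 CPM at 0 h, and the later fall in vehicle was not called (-1.13, adjusted p = 0.07299). SPRY4, in contrast, had a log2 difference of 0.40 (SE 0.128, adjusted p = 0.01011). It was 1.86 times vehicle at 3 h, without overlap, and 0.942 times at 5 h, with overlap, and the call was lost without replicate 1 or 2 (adjusted p = 0.2068 and 0.06525). Its means with cycloheximide did not rise, at 132, 125, 115 and 96.4 CPM at 0, 1, 3 and 5 h. The vehicle mean was 133 CPM at 0 h and 61.7 CPM at 3 h, the dip given above. In MAPKi, SPRY2 (2.65, adjusted p = 1.013e-11) and SPRY1 (3.37, adjusted p = 7.39e-06) were higher too. SPRY4 was not called (0.29, SE 0.463, adjusted p = 0.7023). SPRY1 there rested on 74 counts with cycloheximide and 5 in vehicle at 5 h, a ratio of 11.4 (4.69 to 36.3).

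DUSP6 had 973, 940 and 973 CPM at 3 h with cycloheximide in DMSO, above 313, 425 and 501 CPM in vehicle (log2 difference over 3 and 5 h 1.38, SE 0.157, adjusted p = 1.287e-11). In MAPKi it was also higher, at 8.55, 8.18 and 9.93 CPM against 1.72, 1.34 and 1.41 CPM at 3 h (1.93, SE 0.328, adjusted p = 1.819e-06). These MAPKi values with cycloheximide lay below every DMSO vehicle library. PHLDA1 was above vehicle by like amounts, 1.32 in DMSO (adjusted p = 2.967e-15) and 1.28 in MAPKi (adjusted p = 8.927e-14). Its vehicle means were lower at 3 and 5 h than at 0 h in both pretreatments, so these are not rises alone. With cycloheximide its mean went from 503 CPM at 0 h to 976 CPM at 5 h in DMSO. In MAPKi it went from 140 to 217 CPM. DUSP5 rose in DMSO (1.06, adjusted p = 0.0001348) and was not called in MAPKi (0.22, SE 0.246, adjusted p = 0.5504). The MAPKi average joins 2 unlike times: DUSP5 was 1.75 times vehicle at 3 h, without overlap, and 0.791 times at 5 h, with overlap. SPRED1 rose by 0.43 in DMSO (adjusted p = 1.07e-06) and 0.25 in MAPKi (adjusted p = 0.00832, and 0.4071 without replicate 3). SPRED2 was called in neither (0.03 and -0.49). In MAPKi it was 0.532 times vehicle at 3 h, without overlap, and 0.977 times at 5 h, with overlap.

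The difference between pretreatments was itself tested, and 2 of the 10 passed, where 11% of all genes did. For DUSP1 the cycloheximide difference was smaller in MAPKi by 1.89 on the log2 scale (interaction -1.89, SE 0.409, adjusted p = 0.000556). For DUSP4 it was larger (0.82, SE 0.115, adjusted p = 9.274e-08). DUSP4 had 176, 168 and 198 CPM with cycloheximide at 5 h in DMSO against 176, 191 and 206 CPM in vehicle, which overlap. In MAPKi it had 30.2, 32 and 37.4 against 12.4, 12.5 and 14.1 CPM, which do not. At 3 h, which the test also covers, the overlap was the reverse. DUSP4 was then 1.18 times vehicle in DMSO, without overlap, and 1.37 times in MAPKi, with overlap. In MAPKi it was already apart at 0 h, at 26.8 to 36.2 CPM with cycloheximide and 20.6 to 24.8 CPM in vehicle. The MAPKi gap at 5 h thus goes with a lower vehicle level than at 0 h. Both interaction calls held in 11 of 11 alternatives.

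**Figure D2:**
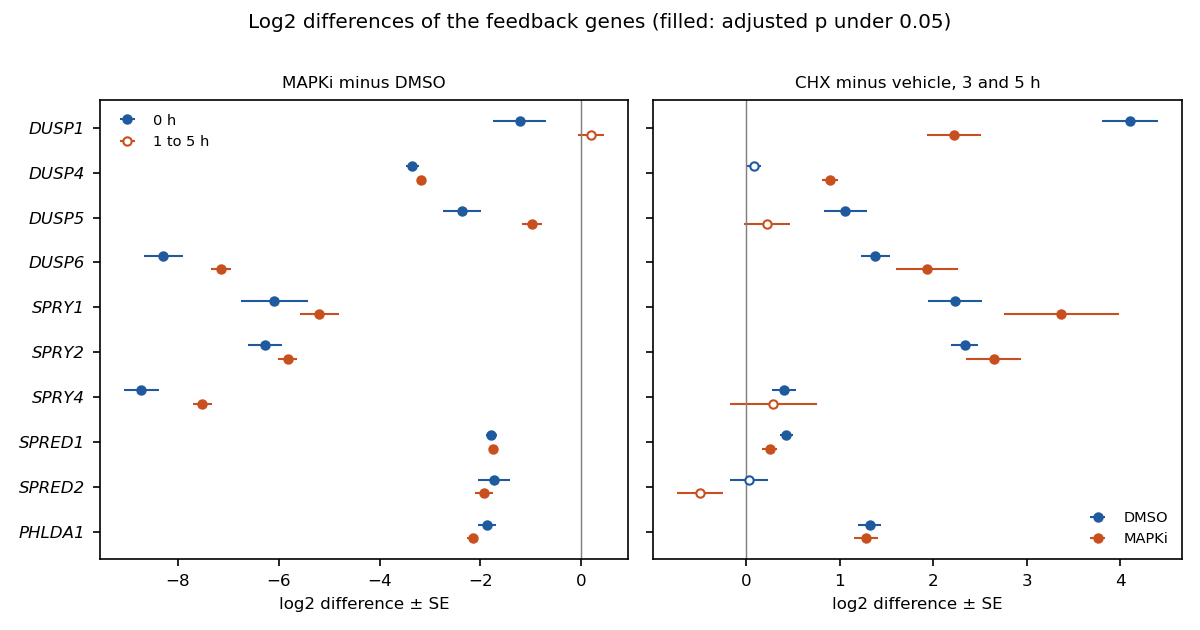
Log2 differences of the 10 mRNAs with bars for the standard error, derived from each test. On the left is MAPKi minus DMSO at 0 h and at 1 to 5 h. On the right is cycloheximide minus vehicle at 3 and 5 h in each pretreatment. Filled symbols have an adjusted p under 0.05. DUSP6 and SPRY4 lie lowest on the left (-8.28 and -8.72 at 0 h), and DUSP1 in DMSO lies highest on the right (4.10).

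Triptolide asked how fast these mRNAs are lost once transcription stops. Levels here were scaled by stable genes, picked in these same libraries for a CPM that rose after triptolide, which places other genes lower. The share left is the level as a percentage of the mean of vehicle at 0 h. CPM values remain TMM scaled and are not on the scale of these shares. At 1 h, 1 of the 10 was called lower in DMSO, DUSP6 (-1.05, SE 0.229, adjusted p = 0.005178), where 0.823% of all genes were. In MAPKi 1 was called, PHLDA1 (-0.86, SE 0.182, adjusted p = 0.00234), where 1.57% were. The DUSP6 call was lost without replicate 3 (adjusted p = 0.2663) and the PHLDA1 call without replicate 1 (0.399). Over 3 and 5 h in DMSO, 9 were lower, where 48.7% of all genes were, with a median log2 difference of -3.26 against -0.47. SPRED2 was the exception (-0.56, SE 0.247, adjusted p = 0.05208).

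After 5 h in DMSO the share left was 0.741% ± 0.518 for DUSP6 (SD, n = 3), 1.67% ± 0.777 for SPRY2 and 2.70% ± 4.68 for DUSP5. DUSP5 had 0, 12 and 0 counts in these libraries, so its mean rests on 1 library. PHLDA1 kept 6.37% ± 1.09, SPRY4 8.51% ± 1.72, SPRY1 10.1% ± 4.29 and DUSP4 14.6% ± 1.00. The Spred genes had the highest means, SPRED1 36.5% ± 0.552 and SPRED2 55.7% ± 15.8. DUSP1 began at 60 counts over the 3 libraries and had 0 in all 3 at 5 h, so that it was at least 30.3-fold lower (floor of 3 counts over the group). The median over the 9 genes with enough counts was 7.32% ± 1.31.

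**Figure D3:**
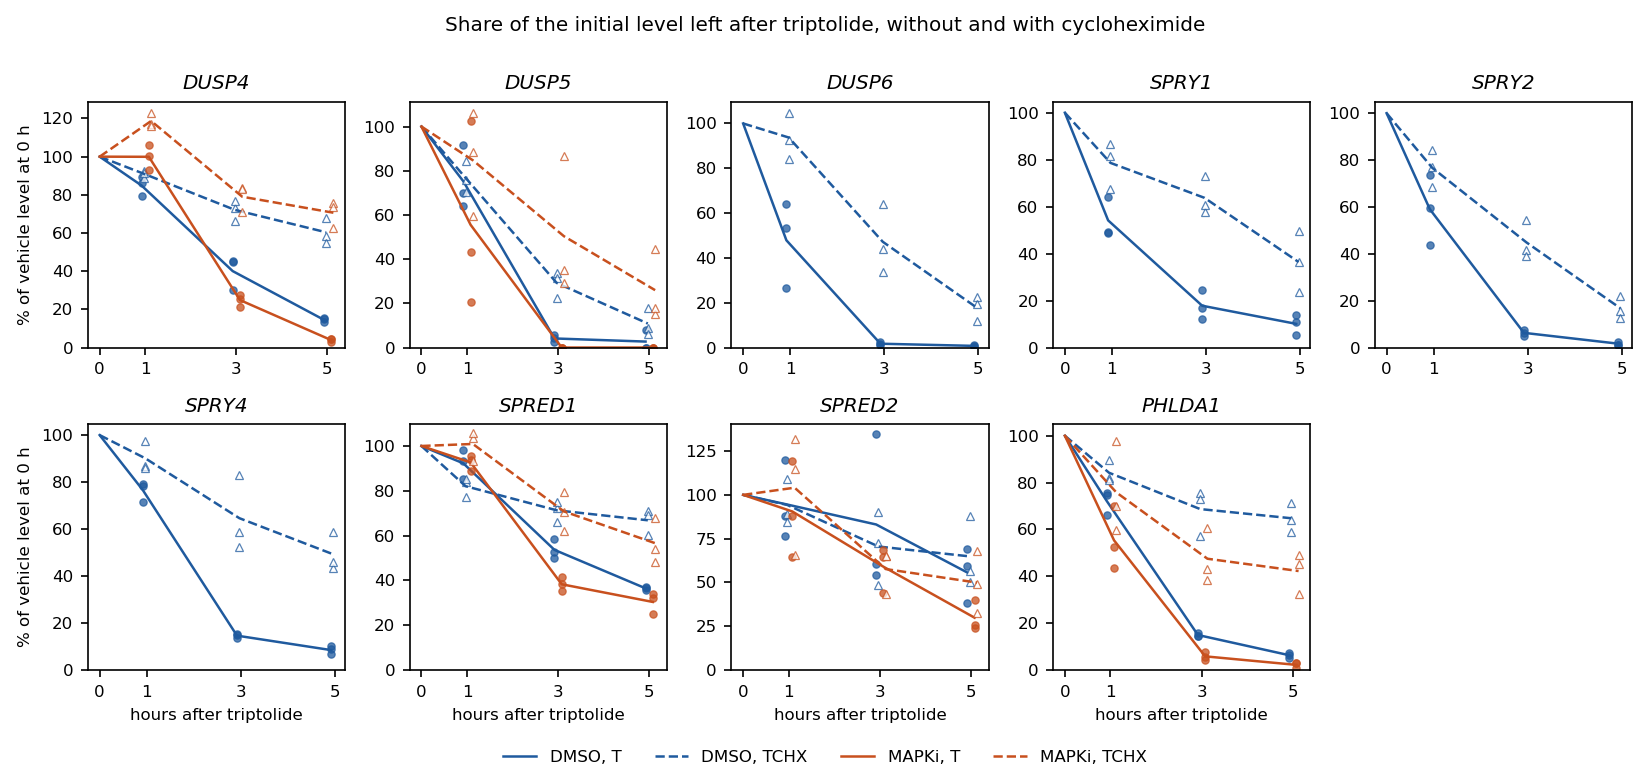
Share of the initial level left, in percent of mean vehicle at 0 h, against hours after triptolide (filled circles, solid lines) or triptolide with cycloheximide (open triangles, dashed lines), in DMSO (blue) and MAPKi (orange), for 9 mRNAs. Points are libraries. In DMSO at 5 h DUSP6 had 0.741% left with triptolide and 17.8% with both drugs.

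In MAPKi over 3 and 5 h, 8 of the 10 were lower with triptolide, where 56.1% of all genes were. SPRY4 was not called (-2.31, adjusted p = 0.05002), from 6 initial counts, and SPRY1 was higher (2.24, adjusted p = 0.01468, and 0.127 without replicate 2), as were 1.28% of all genes. The SPRED2 call was lost without replicate 1 (adjusted p = 0.09557). DUSP4 kept 3.92% ± 0.700 at 5 h, PHLDA1 2.23% ± 1.14, SPRED1 30.4% ± 4.81 and SPRED2 29.9% ± 8.97. DUSP6 went from 23 initial counts to 2 at 3 h and 4 at 5 h (-3.37, SE 0.945, adjusted p = 0.001605). The triptolide arm itself, however, already had only 0, 0 and 7 counts of DUSP6 at 0 h. Of 12 alternative analyses 1 lost this call, with adjusted p up to 0.1516. DUSP5 had 0 counts in all 6 libraries at 3 and 5 h, at least 30.4-fold and 30.2-fold lower. DUSP1 at 5 h was at least 11.9-fold lower, and SPRY2 at 3 h at least 8.53-fold lower.

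Decay itself was compared between pretreatments, and 3 of the 10 differed, where 3.17% of all genes did. DUSP4 fell further in MAPKi (interaction -1.27, SE 0.181, adjusted p = 7.95e-07), with 49.1, 52.2 and 49.5 CPM at 5 h in DMSO and 1.69, 1.66 and 1.17 CPM in MAPKi from starts of 236 and 23.1 CPM. PHLDA1 was as well (-1.46, SE 0.244, adjusted p = 2.134e-05), but without replicate 1 its adjusted p was 0.07615. SPRY1 went the other way (5.11, SE 0.831, adjusted p = 1.429e-05). It had 0, 0 and 4 counts in vehicle at 0 h and 5, 22 and 22 counts at 3 h of triptolide, a ratio of 8.23 (3.02 to 31.4). Against the triptolide arm at 0 h, with 2, 0 and 5 counts, the ratio was 3.27 (1.48 to 8.57).

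**Figure D4:**
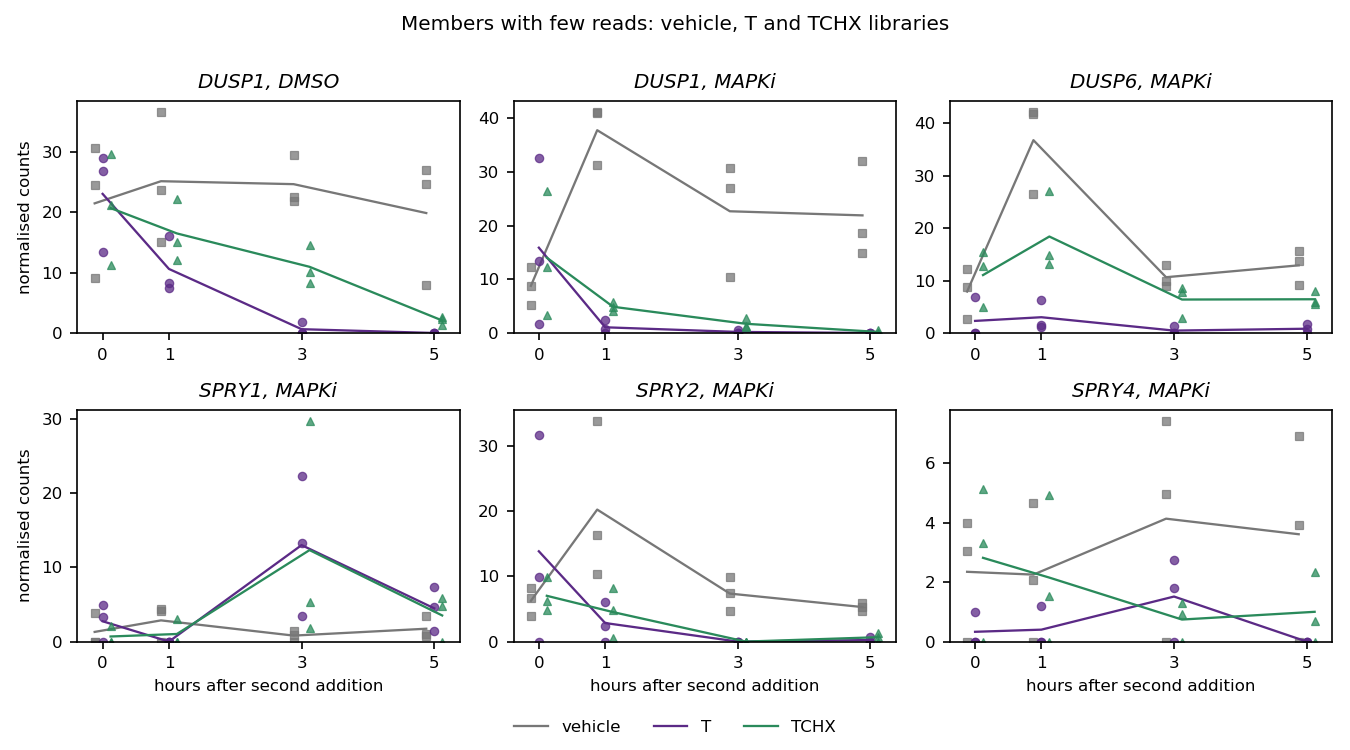
Normalised counts (scaled by stable genes) of DUSP1 in DMSO and of DUSP1, DUSP6, SPRY1, SPRY2 and SPRY4 in MAPKi, the genes with too few counts for a share left. Points are libraries with vehicle (squares), triptolide (circles) or both drugs (triangles). SPRY1 with triptolide at 3 h, from 5, 22 and 22 counts, stands above its vehicle libraries at 0 h.

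With cycloheximide added to triptolide, 9 of the 10 mRNAs stood higher in DMSO at 3 and 5 h and 5 of the 10 in MAPKi, the latter near the share of all genes. At 1 h, 0 of the 10 were called higher in TCHX than in T in DMSO, where 0.0401% of all genes were, and 0 in MAPKi, where 0.341% were. At an unadjusted p under 0.05, 1 was higher in DMSO and 3 in MAPKi, where 2.67% and 7.27% of all genes were. DESeq2 called 0 and 1, and 0.0725% and 0.665% of all genes. Over 3 and 5 h in DMSO, these 9 were higher where 28.4% of all genes were, with a median of 2.42 against 0.23. SPRED2 was the exception (-0.02, SE 0.208, adjusted p = 0.9817).

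PHLDA1 had 427, 414 and 374.9 CPM at 5 h in TCHX against 46.4, 53.6 and 41.2 CPM in T, and kept 64.8% ± 6.23 of its initial level (log2 difference over 3 and 5 h 2.78, SE 0.133, adjusted p = 1.37e-30). DUSP6 had the largest difference (4.71, SE 0.217, adjusted p = 1.323e-31). It kept 47.2% ± 15.4 at 3 h and 17.8% ± 5.5 at 5 h in TCHX, against 1.71% ± 0.674 and 0.741% ± 0.518 in T. DUSP4 kept 60.4% ± 6.77, SPRED1 66.8% ± 5.92, SPRY4 49.3% ± 8.20 and SPRY2 16.8% ± 4.90 at 5 h. SPRY1 kept 36.4% ± 13 at 5 h in TCHX against 10.1% ± 4.29 in T (1.84, adjusted p = 1.625e-06), and DUSP5 29.2% ± 6.01 at 3 h against 4.11% ± 1.69 (2.51, adjusted p = 7.136e-08). At 5 h DUSP5 kept 10.9% ± 6.12 in TCHX against 2.70% ± 4.68 in T, and its libraries overlapped. DUSP1 had 7, 11 and 15 counts at 3 h in TCHX and 2, 0 and 0 in T (adjusted p over 3 and 5 h 0.0001541). Of the 9 genes with enough initial counts, libraries of TCHX lay above those of T without overlap for 4 at 1 h, 8 at 3 h and 7 at 5 h, where 5.84%, 26.8% and 38.6% of all genes with enough counts did.

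In MAPKi 5 of the 10 were higher in TCHX than in T over 3 and 5 h, where 41.4% of all genes were. They were PHLDA1 (3.65, adjusted p = 1.011e-32), DUSP6 (2.94, adjusted p = 0.002492), DUSP4 (2.88, adjusted p = 2.667e-33), SPRED1 (0.90, adjusted p = 9.724e-15) and DUSP5, which had 7, 6 and 18 counts at 3 h in TCHX and 0 in T. SPRY1 (-0.07, adjusted p = 0.932), SPRED2 (0.38, adjusted p = 0.2865) and SPRY4 (1.21, adjusted p = 0.294) were not called. SPRY2 had at most 1 count in any library of either arm. For DUSP1 both arms were at or under the floor of 3 counts at 5 h. DUSP4 kept 70.6% ± 7.13 at 5 h with both drugs against 3.92% ± 0.700 with triptolide. Of the 5 genes with enough initial counts in MAPKi, TCHX lay above T without overlap for 1 at 1 h, 4 at 3 h and 4 at 5 h, where 11%, 38.7% and 51.6% of all such genes did. The TDD index, a measure of decay that depends on translation, is the level in TCHX minus that in T, over the initial level. Its median over 3 and 5 h was 0.313 ± 0.0750 for 9 genes in DMSO and 0.402 ± 0.0882 for the 5 measurable in MAPKi. The gene sets differ, so these medians were not compared.

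Triptolide on top of cycloheximide lowered 10 of the 10 in DMSO, where 42.8% of all genes were lower, and 10 of the 10 in MAPKi, where 55.5% were. DUSP1 changed most in DMSO (-6.55, SE 0.361, adjusted p = 4.955e-27): the 55.4, 47.8 and 72.9 CPM with cycloheximide at 5 h became 0.212, 0.445 and 0.391 CPM with both drugs. SPRY2 followed (-4.48, SE 0.168, adjusted p = 3.802e-37), then DUSP5 (-3.54), DUSP6 (-3.28), SPRY1 (-2.27), PHLDA1 (-1.51) and SPRED1 (-1.08). In MAPKi SPRY2 had 0 counts with both drugs at 3 h and 1, 0 and 1 at 5 h, and the differences of the others were -7.30 for DUSP1, -3.18 for DUSP6, -3.12 for DUSP5, -2.47 for SPRY4, -1.89 for PHLDA1, -1.25 for DUSP4 and -1.22 for SPRED1. The differences were small for DUSP4 (-0.43), SPRY4 (-0.63) and SPRED2 (-0.81) in DMSO, and for SPRY1 (-1.09) and SPRED2 (-0.59) in MAPKi, and these 5 lost their calls under TMM, DESeq2 size factors and total counts. Leaving out replicate 1 or 3 ended the SPRY1 call (adjusted p = 0.1227 and 0.3361), and leaving out replicate 2 or 3 the SPRED2 call in MAPKi (0.282 and 0.1415).

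The genes did not form 1 pattern over the 32 groups, which share libraries, depth and drugs, so that correlations are given as description. DUSP6 and SPRY2 were most alike (Pearson r 0.976 over group means of log2 CPM), and DUSP1 and SPRED2 were far apart (0.274). Outside the 10 genes, ERRFI1 (0.975), which encodes an inhibitor of EGFR, RND3 (0.973) and RFWD3 (0.973) were most like DUSP6. POLR1B (0.987) and RIF1 (0.986) were most like SPRED1, and the immediate early genes JUNB (0.95) and IER2 (0.945), with RGS2 (0.943), most like DUSP1. This order is by Pearson r: RND3, RFWD3, RIF1 and IER2 were not among the 5 nearest genes by Spearman's rho, whereas ERRFI1, POLR1B, JUNB and RGS2 were.

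On GRCh38, DUSP6 lies at chr12:89347235-89352501 and PHLDA1 at chr12:76025447-76031776, both on the minus strand, and the exons of each overlap those of an antisense gene. Because the strand setting of the counting is not given in the sources used here, reads of these genes and their antisense partners cannot be told apart. The exons of the other 8 overlap no other annotated exon. These are DUSP1 (chr5:172768096-172771195, minus strand), DUSP4 (chr8:29333064-29350684, minus), DUSP5 (chr10:110497907-110511533, plus), SPRY1 (chr4:123396795-123403760, plus), SPRY2 (chr13:80335976-80341126, minus), SPRY4 (chr5:142310427-142326455, minus), SPRED1 (chr15:38252836-38357249, plus) and SPRED2 (chr2:65310851-65432637, minus), all protein-coding.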

How the data were processed

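The authors deposited raw counts per gene for 96 QuantSeq libraries. Per their methods and processing notes, forward reads were trimmed with fastp 0.20.1, mapped to GRCh38 with HISAT2 2.2.1 and counted with HTSeq 0.13.5. No molecular identifiers are described, so intervals and floors cover counting error only.

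Counts were fitted with edgeR 4.0.16 in R 4.3.3 (quasi-likelihood, 1 mean per group, 32 groups, two-sided, Benjamini-Hochberg adjusted p under 0.05) over the 14948 genes kept by filterByExpr. TMM scaling was used for vehicle and cycloheximide, and size factors from 36 stable genes for triptolide. Stable genes had over 0.2 CPM in vehicle at 0 h and at least 1.1 times that CPM after 3 and 5 h of triptolide. This was required in every replicate of both pretreatments. The paper's methods describe an ERCC spike-in, which was not used for scaling here. CPM values are TMM scaled. Each SE was derived from its test, as the absolute log2 difference over the square root of the F statistic. DESeq2 1.42.0, other scalings, no filter and leaving out replicates were alternatives. Shares left needed at least 10 initial counts in every library. The fits were tested on simulated data, where small changes of low-count genes were often missed. All 10 genes were named in the comparisons of MAPKi with DMSO and in those of the inhibitors over 3 and 5 h, and the called ones, with some others, elsewhere. From each pathway list at most 4 called genes with the largest change were named, and FOS besides. The genes, lists and motifs were chosen with earlier results of these data known. No pair of libraries in a group was a copy (chi-square per degree of freedom 3.08 to 16.2).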

Additional observations from a re-analysis of the deposited data

Results flagged for a closer look

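For 5 results the effect of a drug differed between DMSO and MAPKi by a test of the difference itself (edgeR, Benjamini-Hochberg adjusted). The cycloheximide difference of DUSP1 at 3 and 5 h was smaller in MAPKi (interaction -1.89 on the log2 scale, adjusted p = 0.000556), and that of DUSP4 was larger (0.82, adjusted p = 9.274e-08). After triptolide, DUSP4 (-1.27, adjusted p = 7.95e-07) and PHLDA1 (-1.46, adjusted p = 2.134e-05) were lost further in MAPKi, and the PHLDA1 call was lost without replicate 1 (adjusted p = 0.07615). SPRY1 had the opposite sign (5.11, adjusted p = 1.429e-05), from 4 initial counts in MAPKi, all in 1 library. Groups of 3 libraries were not tested for outlying samples.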

How the results depend on the processing

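No value changed its direction past the threshold: of the values of single genes over the alternatives, 2371 kept their side of the threshold, 75 lost the call and 44 gained it. Counts of the 10 genes called moved as follows. For vehicle at 1 h in MAPKi (1 called), exchanged scalings, total counts, mitochondrial rRNA scaling and a fit of the compared groups only gave 0, DESeq2 size factors 2, DESeq2 4, no filter 5, and leaving out a replicate 0 to 0. For vehicle at 3 and 5 h in DMSO (3), mitochondrial rRNA scaling gave 0 and leaving out replicate 1 or 2 gave 0. For the same in MAPKi (3), exchanged scalings, mitochondrial rRNA scaling and the compared groups only gave 1, and leaving out replicate 1 gave 1. Without the filter, cycloheximide at 1 h in MAPKi went from 0 to 1, TCHX against T at 1 h gave 1 in place of 0 in DMSO and 2 in place of 0 in MAPKi (DESeq2 gave 1). For triptolide at 1 h in DMSO (1), mitochondrial rRNA scaling, the compared groups only, an initial level from the triptolide arm and leaving out replicate 3 gave 0, DESeq2 2 and no filter 3. In MAPKi (1), mitochondrial rRNA scaling and leaving out replicate 1 gave 0, no filter 2 and the triptolide arm 3. An initial level from the 4 arms, an alternative chosen after seeing the data, gave 2 in each. With the compared groups only, triptolide at 3 and 5 h in MAPKi went from 8 to 5 and TCHX against T from 5 to 3, because DUSP1, DUSP6 and SPRY2 in the former and DUSP5 and DUSP6 in the latter did not pass the filter on low counts there and were not tested. The median share of the initial level left after triptolide, 7.32% in DMSO at 5 h, was 9.41% with total counts and 10.7% with TMM. The cause of the other changes was not tested. The labels do not say that a replicate number marks a shared culture or day. In the column headers of the counts, each number has its own prefix, the same over all groups, and its meaning is not given. Deviations from the group mean had a mean correlation of 0.0167 between same-numbered libraries (from -0.267 to 0.287), against -0.00824 between different numbers. The main fit did not treat the libraries as paired, so a spread shared by number is not taken out there. Of 96 libraries, 64 were nearest to their own number, where an even spread over the 3 numbers would give 32, which is a hint in the data of a spread shared by number. A replicate block moved triptolide at 1 h in DMSO from 1 to 2 and changed no other count by over 1.5 times. Depth limits SPRY1, SPRY4, SPRY2, DUSP6 and DUSP1 in MAPKi, which had 4 to 25 counts at 0 h.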
